A study of Mus musculus with 8 samples.

Results

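The eicosanoid pathway was described in bone marrow-derived macrophages (BMDMs) through 10 genes, which encode the enzymes of prostaglandin and leukotriene synthesis and 1 prostaglandin receptor. The genes were listed by symbol (Ptgs1, Ptgs2, Ptges, Hpgds, Tbxas1, Alox5, Alox5ap, Lta4h, Ltc4s and Ptger4) and matched by Ensembl identifier to 10 of the 54532 genes in the count files. All 10 passed the filter on low counts, as did 14591 genes in all. The set was chosen by the level of 1 of them, Ptgs1, which had been seen to be higher in libraries treated with H151 than in their untreated controls. Values of the 10 genes in that comparison, and those of Ptgs1 in every comparison with 1 of its groups, are therefore descriptions with no p-value, and counts past a threshold there stand beside the share over all genes and are not read as results.

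RNA-Seq of polyadenylated RNA had been made from BMDMs of C57BL/6J mice aged 6 to 8 weeks, whose tibial and femoral marrow was cultured for 7 days in medium conditioned by L929 cells. There were 4 groups of 2 libraries. WT BMDMs and Trex1-KO BMDMs received the DMSO vehicle for 12 h, and Trex1-KO BMDMs received 1 of 2 antagonists of the adaptor protein STING for the same time, H151 at 500 nM or SN-011, for which the labels give no dose and the study's methods the same one. Trex1 encodes an exonuclease that degrades cytosolic DNA, and cells without it signal through cGAS and STING. All 6 knockout libraries are labelled as lacking Trex1, so the antagonists were not measured in WT cells. According to the study's methods, Trex1-/- mice came from crosses of heterozygous animals while WT mice were purchased, so littermate controls are not described, and the groups WT and Trex1-KO may differ in more than the allele. The study describes the 2 libraries of a group as independent experiments, while the labels do not say whether they came from separate animals or cultures, and p-values measure only the spread between these libraries.

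Total counts ran from 11845470 to 17284863 per library, and levels are given as CPM, each count divided by its library's TMM-scaled total, on which 1 count is 0.0581 to 0.0848. Trex1 had 0 counts in all 8 libraries, WT included, and its exons lie inside those of Atrip, which was at 14.1 and 17.4 CPM in WT and between 54.2 and 70.3 CPM in the 6 knockout libraries. The genotypes were taken from the labels. The cell type on the labels was checked against 8 macrophage markers (Lyz2 the highest), whose summed level was between 30050 and 32320 CPM in every library, with none at 0. The SN-011 libraries were recorded later and with another treatment text, and a batch limited to them cannot be told apart from the treatment. In bulk RNA, fewer cells of a type and less RNA per cell cannot be told apart either.

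Eicosanoids are short-lived lipid mediators made from arachidonic acid. Cyclooxygenases convert it to prostaglandin H, which terminal synthases turn into prostaglandin E, prostaglandin D or thromboxane. In the other branch, 5-lipoxygenase and its activating protein make leukotriene A, which Lta4h hydrolyses to leukotriene B or Ltc4s conjugates with glutathione. Macrophages are a major source of both classes and respond to prostaglandin E through receptors that include Ptger4.

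The expression of the pathway was uneven. Genes were compared per kilobase of exonic length, which joins the exons of all annotated transcripts and can exceed the length of the transcript expressed. On this scale Alox5ap was the highest of the 10, with a mean of 119 CPM per kb over the 8 libraries, above 97.7% of tested genes. Hpgds followed at 69.4 and Tbxas1 at 31.2 CPM per kb. The order of these genes depends on the lengths, since in CPM Hpgds (446) and Tbxas1 (283.5) stood above Alox5ap (169). Ptgs1 (10.9 CPM per kb), Lta4h (8.83), Ptger4 (6.79) and Ltc4s (5.06) held the middle of the order, and the ranges of their libraries overlapped from each gene to the next. Ptgs2, the inducible cyclooxygenase, lay at 0.953 CPM per kb, so Ptgs1, the constitutive one, was 11.4 times as abundant. Ptges and Alox5 were the lowest, at 0.514 and 0.507 CPM per kb, and their libraries overlapped. The low level of Alox5 stood against that of Alox5ap, its activating partner, which was 235 times as high per length. Of all tested genes, 21.03% lay below Ptgs2, 13.1% below Ptges and 12.9% below Alox5, and the last 2 rested on as few as 16 and 20 counts in a library.

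**Figure D1:**
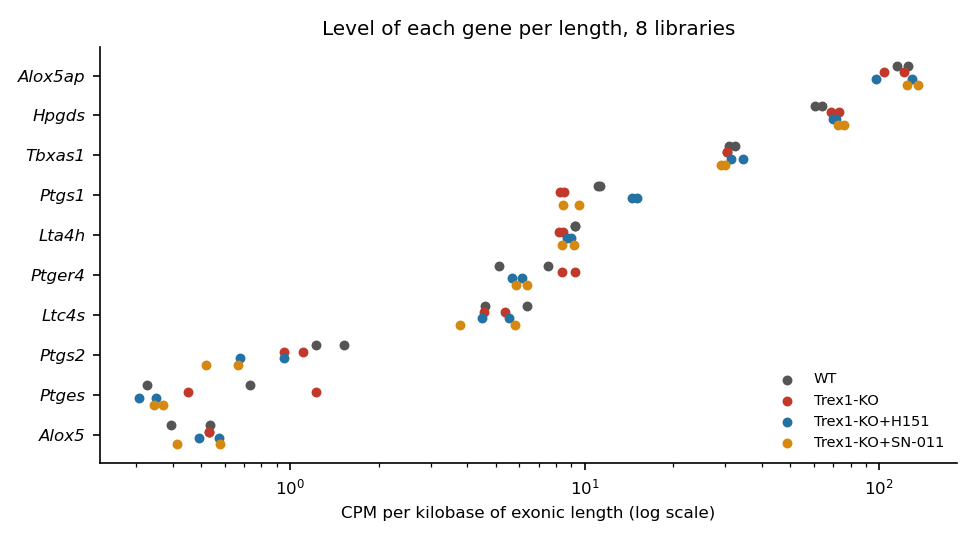
Level of each gene per length, in CPM per kilobase of exonic length on a log axis; each point is 1 library, coloured by group. Alox5ap, Hpgds and Tbxas1 lie highest, between 29.0 and 136 CPM per kb, and Ptgs2, Ptges and Alox5 lie lowest, with all but 3 libraries of Ptgs2 and 1 of Ptges under 1 CPM per kb.

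The sequences before the start sites are shown for both cyclooxygenases, whose transcripts took different orders across the groups, and for the receptor Ptger4. The set of promoter sequences used (RefSeq, GRCm38.p6) was matched for 9 of the 10 genes, all but Alox5ap. Each line gives the 250 bases before the start, 5′ to 3′ on the strand of the gene, in lower case, with GC boxes (GGGCGG), the core of the response element of the aryl hydrocarbon receptor (GCGTG) and TATA boxes (TATAAA) in capitals wherever they match on either strand. They lie at chr2:36230176-36230425 on the plus strand for Ptgs1, at chr1:150099781-150100030 on the plus strand for Ptgs2 and at chr15:5244188-5244437 on the minus strand for Ptger4.
Ptgs1: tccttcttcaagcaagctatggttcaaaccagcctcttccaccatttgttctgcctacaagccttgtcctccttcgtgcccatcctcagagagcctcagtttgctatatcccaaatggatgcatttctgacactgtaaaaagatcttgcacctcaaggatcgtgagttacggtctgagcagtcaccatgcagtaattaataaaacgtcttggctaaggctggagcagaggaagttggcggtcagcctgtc
Ptgs2: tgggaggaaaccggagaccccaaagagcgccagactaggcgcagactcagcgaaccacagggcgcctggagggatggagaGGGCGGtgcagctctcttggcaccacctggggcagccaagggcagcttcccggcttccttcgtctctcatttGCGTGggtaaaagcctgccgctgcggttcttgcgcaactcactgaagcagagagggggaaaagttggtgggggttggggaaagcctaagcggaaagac
Ptger4: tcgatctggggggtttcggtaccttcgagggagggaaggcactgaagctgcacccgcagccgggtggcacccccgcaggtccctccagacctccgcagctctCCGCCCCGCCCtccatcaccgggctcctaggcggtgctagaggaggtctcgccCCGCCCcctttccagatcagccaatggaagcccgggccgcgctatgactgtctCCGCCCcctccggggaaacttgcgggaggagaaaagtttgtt
The Ptgs1 sequence held none of the 3 marked motifs on either strand, and its GC content was 48.0%, below the median of 52.4% over 32817 promoters. In Ptgs2 there was 1 GCGTG, 98 bases before the start, with 1 GC box, at a GC content of 61.6%. The Ptger4 sequence held 4 GC boxes, at a GC content of 66.8%. Over all promoters, the share with a GC box was 32.7%, with GCGTG 28.1%, and with a TATA box 12.4%. A match describes letters in this window and is not evidence of binding.

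Ptgs1 (ENSMUSG00000047250, chromosome 2, 36230426 to 36252272, GRCm38) encodes the cyclooxygenase that most cells express without stimulation. It was measured at 43.2 and 43.9 CPM in WT, 33.2 and 32.1 CPM in untreated Trex1-KO, 58.7 and 56.5 CPM in Trex1-KO+H151, and 32.8 and 37.2 CPM in Trex1-KO+SN-011. The H151 libraries were the highest of the 8 and the WT libraries came next, while the SN-011 and untreated knockout libraries overlapped. The mean was 32.6 ± 0.77 CPM in Trex1-KO and 57.6 ± 1.5 CPM with H151 (SD, n = 2), a log2 difference of 0.82 ± 0.09 (SE), or 1.77-fold, in the comparison that drew attention to the gene. With SN-011 the log2 difference from Trex1-KO was 0.09 ± 0.09 (SE, 95% interval -0.10 to 0.29). Between the antagonists the SN-011 value was lower by a log2 difference of -0.72 ± 0.09 (SE), given as a description because the H151 libraries chose the gene. Trex1-KO lay below WT by a log2 difference of -0.42 ± 0.09 (SE). Both differences from the untreated knockout are descriptions too, because its libraries entered the choice. Neither group of the comparison between SN-011 and WT had been used to choose Ptgs1. There it was lower with SN-011, at a log2 fold change of -0.32 with an SE of 0.09 (edgeR adjusted p = 0.0253). The lower level with SN-011 than in WT was lost without WT replicate 1 (adjusted p = 0.10), WT replicate 2 (0.121) or SN-011 replicate 1 (0.279), and with DESeq2 (0.0727). Over 3.81% of its exonic length Ptgs1 overlaps an opposite-strand transcript that had 1 to 17 counts.

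Levels of markers of other cell types are set beside Ptgs1 here. Neither the platelet list nor the stromal list took the order of Ptgs1 over the 4 groups. Megakaryocytes and platelets are rich in Ptgs1, and their 7 markers summed to 138 and 163 CPM in WT, 176 and 197 CPM in untreated Trex1-KO, 287 and 270.2 CPM under H151, and 170.0 and 188 CPM with SN-011. Nearly all of that sum was Pf4, a platelet chemokine that macrophages also express, which stood at 283 and 265 CPM with H151 against 173 and 193 CPM in Trex1-KO. Of the defining markers of the lineage, Gp9, Gp6 and Gp1bb had at most 2 counts in any library, and Gp1bb, whose exons lie mostly inside those of other genes, was at 0 in all 8. Tubb1 had 2 to 7 counts, with means of 0.325 CPM in WT, 0.363 CPM in untreated Trex1-KO, 0.2705 CPM under H151 and 0.143 CPM with SN-011. Itga2b had 8 to 24 counts, with means of 1.525, 0.927, 1.05 and 1.07 CPM in the same order, so neither was highest with H151. Ppbp, another platelet chemokine, was highest with H151, at 0.809 and 1.56 CPM in WT, 1.81 and 2.50 CPM in untreated Trex1-KO, 3.34 and 3.62 CPM under H151, and 2.38 and 2.55 CPM with SN-011. It was called in H151 against WT (log2 fold change 1.54, edgeR adjusted p = 0.00819). It was not called in H151 against Trex1-KO (0.68, adjusted p = 0.502), Trex1-KO against WT (0.86, 0.136) or SN-011 against H151 (-0.50, 0.653). The part of such cells in the Ptgs1 level was not tested. Stromal markers summed to 2298 and 2097 CPM in WT and to between 862 and 1221 CPM in the 6 knockout libraries, with 5 of 7 tested markers lower in Trex1-KO. Dcn, on the same list, went the other way without passing the test, at 1.76 and 2.57 CPM in WT and between 2.90 and 3.43 CPM in the knockout libraries. The part of stromal cells in the lower Ptgs1 of Trex1-KO, or in the Ptgs2 levels below, was not tested.

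Ptgs2 (ENSMUSG00000032487, chromosome 1, 150100031 to 150108227), which encodes the cyclooxygenase induced by inflammatory stimuli, took another order. It was measured at 6.98 and 5.62 CPM in WT, 4.37 and 5.07 CPM in untreated Trex1-KO, 3.09 and 4.36 CPM under H151, and 2.38 and 3.05 CPM with SN-011. These are between 36 and 95 counts per library, and neighbouring groups lay close together, with both SN-011 libraries below all others. Trex1-KO did not differ detectably from WT, at a log2 fold change of -0.41 with an SE of 0.23 (edgeR adjusted p = 0.278). In the direct comparison of SN-011 with WT, Ptgs2 was lower by a log2 fold change of -1.23 ± 0.25 (SE, adjusted p = 0.00466), from a mean of 6.30 to 2.72 CPM (n = 2 each). Against Trex1-KO the SN-011 value was -0.82 ± 0.26 on the log2 scale and did not pass (adjusted p = 0.161), and the H151 value was -0.33 ± 0.24, given without a test. The antagonists did not differ detectably from each other in Ptgs2 (-0.49 ± 0.27, SE, 95% interval -1.06 to 0.08, adjusted p = 0.610). H151 against WT gave -0.74 ± 0.24, which missed the threshold (adjusted p = 0.0611) and passed it without H151 replicate 2 (adjusted p = 0.0378). The lower level with SN-011 than in WT was lost without WT replicate 1 (adjusted p = 0.0535) or SN-011 replicate 1 (0.0787).

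**Figure D2:**
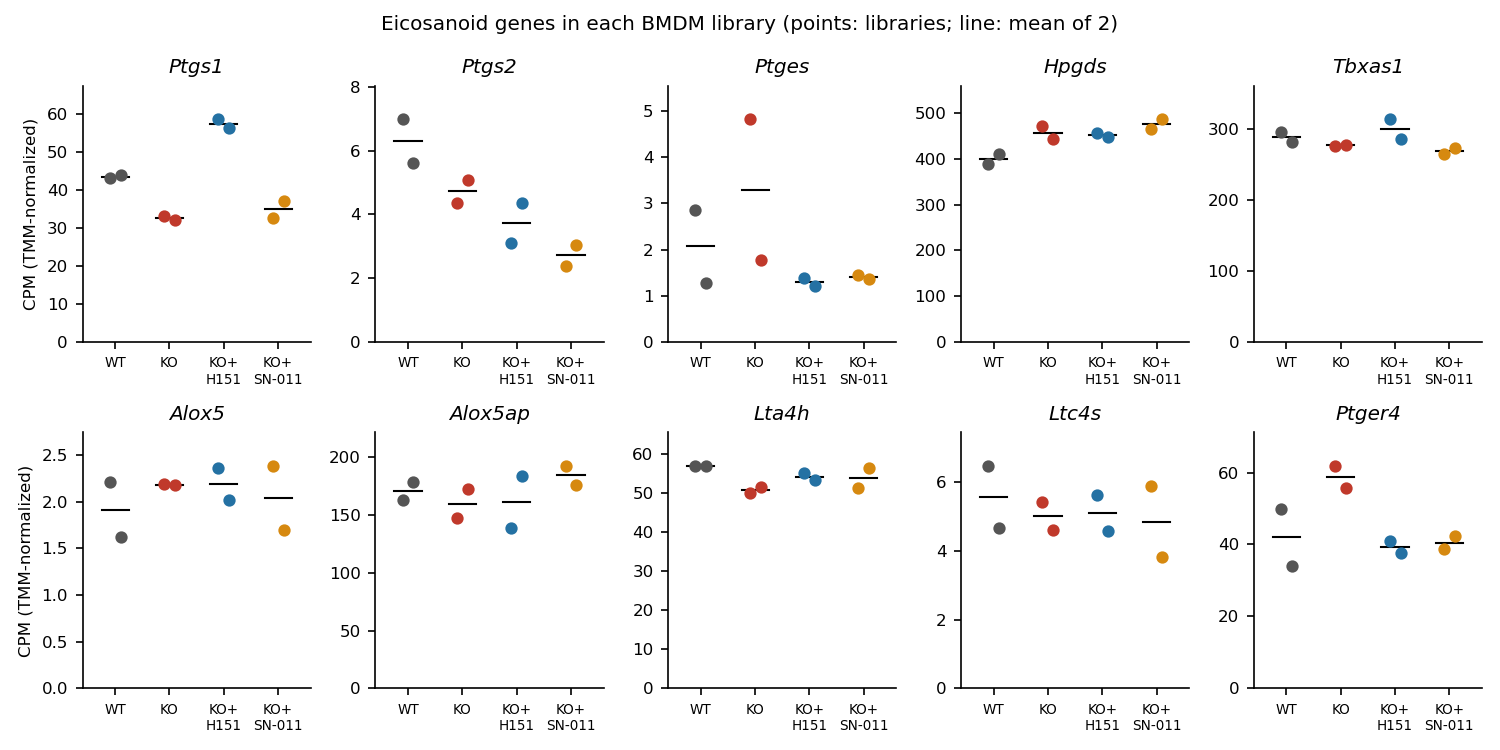
CPM of each of the 10 genes in the 8 libraries, with axes that start at 0; points are libraries and lines are means of 2. Ptgs1 is highest with H151, at 58.7 and 56.5 CPM, Ptgs2 is lowest with SN-011, at 2.38 and 3.05 CPM, and Ptger4 is highest in untreated Trex1-KO, at 61.9 and 55.6 CPM.

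Among the terminal prostanoid synthases, Hpgds (ENSMUSG00000029919, chromosome 6, 65117293 to 65144908), which makes prostaglandin D in haematopoietic cells, was lower in WT than in every knockout library. It stood at 388 and 410.0 CPM in WT, 471 and 443 CPM in untreated Trex1-KO, 457 and 447 CPM under H151, and 465 and 486 CPM with SN-011. The Trex1-KO libraries overlapped those of both antagonists, and both SN-011 libraries lay above both H151 libraries. It rose in Trex1-KO over WT by a log2 fold change of 0.19 with an SE of 0.06 (edgeR adjusted p = 0.0324) and was higher than in WT with SN-011 (0.25 ± 0.06, SE, adjusted p = 0.00932), while with H151 the difference from WT of 0.18 ± 0.06 missed the threshold (adjusted p = 0.0596). These differences of 1.13 to 1.19-fold were small. The call in Trex1-KO was lost without WT replicate 1 (adjusted p = 0.285), WT replicate 2 (0.0727) or Trex1-KO replicate 1 (0.299), under total-count scaling, and with DESeq2 (0.0582) or the exact test (0.0524), and that with SN-011 without WT replicate 1 (0.137) or SN-011 replicate 2 (0.148). Mast cells also express Hpgds. Their 8 markers summed to at most 3.62 CPM in any library, with Cma1 at 0 in all 8, and their part in the Hpgds level was not tested. In every knockout library the summed neutrophil markers were higher than in WT and the summed stromal markers lower, with Dcn of the stromal list the other way. The part of neutrophils or stromal cells in the Hpgds level was not tested either.

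Tbxas1 (ENSMUSG00000029925, chromosome 6, 38875404 to 39084585), which encodes thromboxane synthase, was measured at 296 and 282 CPM in WT, 276 and 278 CPM in untreated Trex1-KO, 313 and 286 CPM under H151, and 264 and 273 CPM with SN-011. Its libraries lay within 1.19 times of each other, and no test called it. The largest tested difference, SN-011 against H151, was -0.16 ± 0.06 on the log2 scale (SE, edgeR adjusted p = 0.495). Ptges (ENSMUSG00000050737, chromosome 2, 30889471 to 30929863), the inducible prostaglandin E synthase, was the least reproducible of the 10. It stood at 2.87 and 1.29 CPM in WT, 4.82 and 1.78 CPM in untreated Trex1-KO, 1.38 and 1.21 CPM under H151, and 1.45 and 1.36 CPM with SN-011, from 16 to 64 counts. Replicate 1 of WT and of Trex1-KO lay at more than 2 times the level of replicate 2, and the 4 antagonist libraries lay between 1.21 and 1.45 CPM, below both Trex1-KO libraries. The log2 fold change of Trex1-KO against WT was 0.66 with an SE of 0.45 (adjusted p = 0.388) and became -0.22 without Trex1-KO replicate 1. SN-011 against Trex1-KO gave -1.20 ± 0.47 (adjusted p = 0.309), which passed only without Trex1-KO replicate 2 (adjusted p = 0.0458) or with a looser filter, and was -0.33 without Trex1-KO replicate 1. The H151 value against Trex1-KO was -1.33 ± 0.49, given without a test.

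The leukotriene genes varied little between groups, and none of the 4 was called in any comparison in the fit of all libraries. Alox5ap (ENSMUSG00000060063, chromosome 5, 149264767 to 149288153), which presents arachidonic acid to 5-lipoxygenase, was measured at 163 and 178.5 CPM in WT, 147 and 172 CPM in untreated Trex1-KO, 139 and 184 CPM under H151, and 192.5 and 176 CPM with SN-011. All 4 groups overlapped with at least 1 other, and the SN-011 libraries lay above those of Trex1-KO by a log2 fold change of 0.21 ± 0.11 that did not pass (SE, edgeR adjusted p = 0.501). Without H151 replicate 2, the higher of the H151 libraries, it was called against SN-011 (0.41, adjusted p = 0.0367) and against WT (-0.31, adjusted p = 0.0479). Lta4h (ENSMUSG00000015889, chromosome 10, 93453411 to 93484875), the hydrolase that makes leukotriene B, was the steadiest of the 10 genes, at 56.8 and 56.9 CPM in WT, 50.0 and 51.6 CPM in untreated Trex1-KO, 54.9 and 53.2 CPM under H151, and 51.3 and 56.3 CPM with SN-011. Both WT libraries lay above all others, yet the log2 fold change of Trex1-KO against WT was -0.16 with an SE of 0.08 (adjusted p = 0.189).

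Alox5 (ENSMUSG00000025701, chromosome 6, 116410077 to 116461178), which encodes 5-lipoxygenase itself, had only 20 to 41 counts per library. It stood at 2.21 and 1.62 CPM in WT, 2.19 and 2.17 CPM in untreated Trex1-KO, 2.36 and 2.01 CPM under H151, and 2.38 and 1.70 CPM with SN-011, and every group overlapped every other. Its log2 fold change in Trex1-KO was 0.19 with an SE of 0.32 (95% interval -0.49 to 0.87, or 0.713 to 1.83-fold, edgeR adjusted p = 0.759). Ltc4s (ENSMUSG00000020377, chromosome 11, 50236461 to 50238616), the synthase of leukotriene C, was measured at 6.47 and 4.67 CPM in WT, 5.43 and 4.61 CPM in untreated Trex1-KO, 5.61 and 4.56 CPM under H151, and 5.87 and 3.82 CPM with SN-011. In each group 1 library lay between 5.43 and 6.47 CPM and the other under 5 CPM, and the groups overlapped. Its tested log2 differences were between -0.17 and -0.02 (edgeR adjusted p 0.760 to 0.988), and 26.4% of its exonic length is shared with an antisense transcript of 3 to 13 counts. Neutrophils express Alox5 and Alox5ap strongly, and their 8 markers summed to 9.85 and 9.41 CPM in WT but to between 65.6 and 99.9 CPM in the knockout libraries, with 6 of 6 tested markers higher in Trex1-KO. The part of neutrophils in the levels of Alox5 and Alox5ap was not tested.

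Ptger4 (ENSMUSG00000039942, chromosome 15, 5206661 to 5244187) encodes a prostaglandin E receptor that raises cyclic AMP. It was measured at 49.9 and 34.0 CPM in WT, 61.9 and 55.6 CPM in untreated Trex1-KO, 40.9 and 37.7 CPM under H151, and 38.8 and 42.3 CPM with SN-011. The untreated knockout libraries were the highest, and the libraries of both antagonists fell inside the range of WT. It rose in Trex1-KO by a log2 fold change of 0.49 with an SE of 0.14 (edgeR adjusted p = 0.0251), from a mean of 41.98 ± 11.2 to 58.7 ± 4.4 CPM (SD, n = 2). With SN-011 it was lower than in Trex1-KO by a similar size, -0.54 ± 0.14 (SE), but did not pass in the fit of all libraries (adjusted p = 0.0633), and it passed with DESeq2 (0.0176) and with only the 4 libraries of the comparison (0.00274). The value for H151 was -0.58 ± 0.14, a description. The antagonists did not differ detectably (0.04 ± 0.14, 95% interval -0.26 to 0.35, adjusted p = 0.946), nor did either differ detectably from WT (adjusted p = 0.750 for H151 and 0.888 for SN-011). The rise in Trex1-KO was not called without WT replicate 2, the lower WT library (0.22, adjusted p = 0.288), without Trex1-KO replicate 1 (adjusted p = 0.145), or with total counts only (0.0574). Ptger4 shares 16.5% of its exonic length with other genes, mostly a processed pseudogene listed at 0 counts in all 8 libraries.

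Counted over the 10 genes, 3 were past the threshold in Trex1-KO against WT, beside 16.4% of all tested genes. Hpgds and Ptger4 were the 2 called higher, where 9.27% of all genes were, and Ptgs1, a description, was the 1 lower, beside 7.11%. The libraries of the groups did not overlap for 6 of the 10, beside 56.1% of all genes, and the median log2 fold change of the 10 was -0.08 against -0.00 for all genes. In Trex1-KO+H151 against Trex1-KO, the comparison that drew attention to Ptgs1, 2 were past the threshold beside 2.23%. These were Ptgs1, higher beside 0.384%, and Ptger4, lower beside 1.84%, with 6 of the 10 not overlapping beside 35.4%. Nothing is read from these counts, since this comparison chose the set. Ptger4 was no longer past the threshold when any 1 of the 4 libraries was left out. In Trex1-KO+SN-011 against Trex1-KO, the quasi-likelihood fit of all libraries called 0 of the 10 beside 2.33% of all genes (0.11% higher and 2.22% lower). Unadjusted p-values were under 0.05 for 3 (Ptgs2, Ptges and Ptger4), all lower, beside 12% of all genes, and Ptger4 was called by DESeq2, by the exact test of edgeR and in the quasi-likelihood fits with a replicate block or with the 2 groups alone. A looser filter called those 3, and 5 of the 10 did not overlap beside 43.4%.

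Between the antagonists 1 of the 10 was past the threshold, Ptgs1, which is a description, beside 0.158% of all genes, all of them lower with SN-011, and it was not past the threshold without SN-011 replicate 1. Their libraries did not overlap for 4 of the 10 beside 39.7%. Against WT, 1 of the 10 was past the threshold with H151 (Ptgs1, a description) beside 11.8%, or 6.79% for higher and 5.04% for lower genes, and 4 did not overlap beside 52.1%. Without WT replicate 1, Ptgs1 was not past the threshold with H151. With SN-011 there were 3 beside 11.7%. Hpgds was the 1 higher, beside 6.18%, Ptgs1 and Ptgs2 were the 2 lower, beside 5.57%, and 5 of the 10 did not overlap beside 54.4%. The comparisons share libraries, so their counts are not independent of each other.

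**Figure D3:**
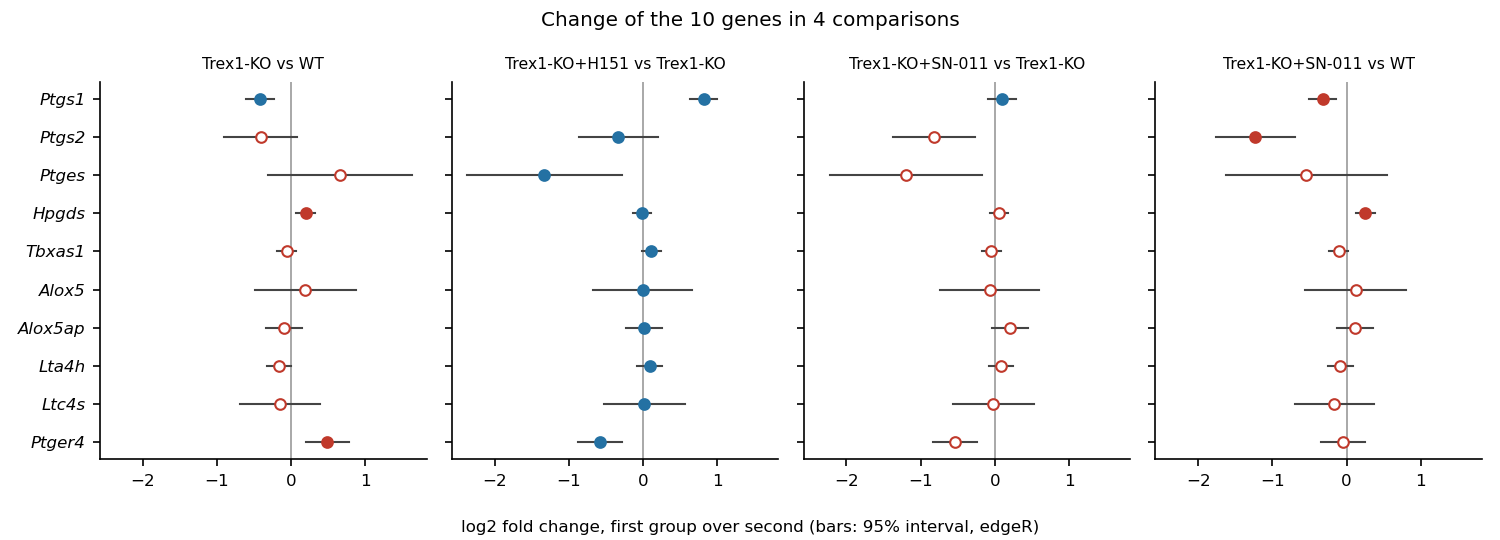
log2 fold change of the 10 genes in 4 comparisons; bars are 95% intervals from edgeR. Filled red points passed an adjusted p of 0.05 and open red points did not, while blue points (H151 against Trex1-KO, and Ptgs1 wherever the untreated Trex1-KO libraries enter) are shown with no test. Ptgs1 lies at 0.82 with H151 and at 0.09 with SN-011, and Ptger4 lies at -0.58 and -0.54.

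A wider list of 59 other eicosanoid genes was laid beside the 10. Of these, 39 were tested and 20 were too low, among them 5 with 0 counts in all 8 libraries (Alox8, Alox12b, Alox12e, Ptgdr and Oxgr1), and 16 of the 20 had under 10 counts in every library. The lipoxygenases Alox12 and Alox15 reached at most 12 and 3 counts, and the thromboxane receptor Tbxa2r and the leukotriene B receptor Ltb4r1 at most 5 and 7 (named after their levels were seen). In Trex1-KO against WT, 10 of the 39 were called beside 16.4% of all genes, 5 higher and 5 lower, with a median log2 fold change of -0.03. The 5 tested prostanoid synthases held no call, and the 10 tested genes of inactivation and transport held 3, all lower, beside 7.11% of all genes. The 3 were Hpgd, Slco2a1 and Zadh2, the last named after its values were seen, and Zadh2 was lost with DESeq2 and without WT replicate 1, WT replicate 2 or Trex1-KO replicate 2.

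Transcripts of prostaglandin breakdown and uptake were among those that fell in Trex1-KO. Hpgd, the dehydrogenase that inactivates prostaglandins, was measured at 186 and 178 CPM in WT, 74.2 and 83.2 CPM in untreated Trex1-KO, 75.4 and 76.3 CPM under H151, and 97.1 and 88.6 CPM with SN-011. Both WT libraries stood above all 6 knockout libraries, and its log2 fold change in Trex1-KO was -1.21 with an SE of 0.07 (edgeR adjusted p = 6.13e-08). Slco2a1, the transporter that carries prostaglandins into cells, was at 8.89 and 8.73 CPM in WT, 2.41 and 2.04 CPM in untreated Trex1-KO, 3.91 and 3.42 CPM under H151, and 2.62 and 1.44 CPM with SN-011 (-1.99 ± 0.25 in Trex1-KO, adjusted p = 7.62e-05). The lowest of the 39 tested genes relative to WT was Dpep1, a dipeptidase that converts leukotriene D, at 10.2 and 7.38 CPM in WT against 1.58 and 1.12 CPM in Trex1-KO (-2.70 ± 0.28, adjusted p = 1.13e-05). The summed stromal markers were also lower in the knockout libraries, with Dcn the other way, as given above for Ptgs1, and their part in these 3 falls was not tested.

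Among the called genes of the list, Cysltr2, Mgll and Dpep2 had the 3 largest rises. Cysltr2, a receptor of cysteinyl leukotrienes, was at 1.10 and 1.49 CPM in WT, 5.43 and 5.40 CPM in untreated Trex1-KO, 5.86 and 6.04 CPM under H151, and 5.06 and 4.92 CPM with SN-011, 2.05 ± 0.25 on the log2 scale in Trex1-KO (SE, edgeR adjusted p = 4.81e-05). Mgll, a lipase that frees arachidonic acid from an endocannabinoid, was at 2.13 and 1.151 CPM in WT against 5.50 and 4.48 CPM in Trex1-KO (1.61 ± 0.33, adjusted p = 0.00341), a call lost without WT replicate 2 (adjusted p = 0.0565). Dpep2, another leukotriene dipeptidase, rose by less (0.40 ± 0.11, adjusted p = 0.0227), was lost without WT replicate 1 (adjusted p = 0.225) or either Trex1-KO replicate (0.118 and 0.0642), with DESeq2 (0.0803) and with total counts only (0.0665), and shares 44.0% of its exonic length with other genes. The summed neutrophil markers given above for Alox5 were also higher in all 6 knockout libraries, and their part in these 3 rises was not tested.

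No gene of the wider list passed the quasi-likelihood test in the fit of all libraries with either antagonist against Trex1-KO, though a looser filter called 1 in each (Slco2b1 with H151 and Ptgir with SN-011, named after their values were seen). Of the 39 genes, 0 were called with H151 against Trex1-KO, 0 with SN-011 against Trex1-KO and 0 between the antagonists, where 5, 6 and 9 had an unadjusted p under 0.05, beside 9.36%, 12% and 8.91% of all genes. DESeq2 called 1, 0 and 0. Against WT, 8 of the 39 were called with H151 beside 11.8% of all genes (5 higher beside 6.79%, 3 lower beside 5.04%) and 9 with SN-011 beside 11.7% (5 higher beside 6.18%, 4 lower beside 5.57%). Cysltr2 was higher and Hpgd, Slco2a1 and Dpep1 were lower than WT in both. With H151 the log2 fold changes were 2.18 for Cysltr2, -1.26 for Hpgd, -1.27 for Slco2a1 and -1.91 for Dpep1, and with SN-011 they were 1.93, -0.97, -2.06 and -2.26 in the same order (edgeR adjusted p between 1.13e-07 and 0.00251). Mgll was also higher with H151 (1.23, adjusted p = 0.0307) and with SN-011 (1.66, adjusted p = 0.00386), as was Dpep2 with H151 (0.50, adjusted p = 0.00758) and Pla2g2e, a secreted phospholipase, with SN-011 (1.21, adjusted p = 0.0415). The call of Pla2g2e was lost whichever library was left out (adjusted p 0.0712 to 0.299), with DESeq2 (0.188) and with total counts only (0.0525). Mgll was lost without WT replicate 2 in both (adjusted p = 0.250 and 0.0558) and, with H151, without H151 replicate 1 (0.228) or with the 2 groups alone (0.0525), and Dpep2 with H151 was lost without WT replicate 1 (0.114).

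**Figure D4:**
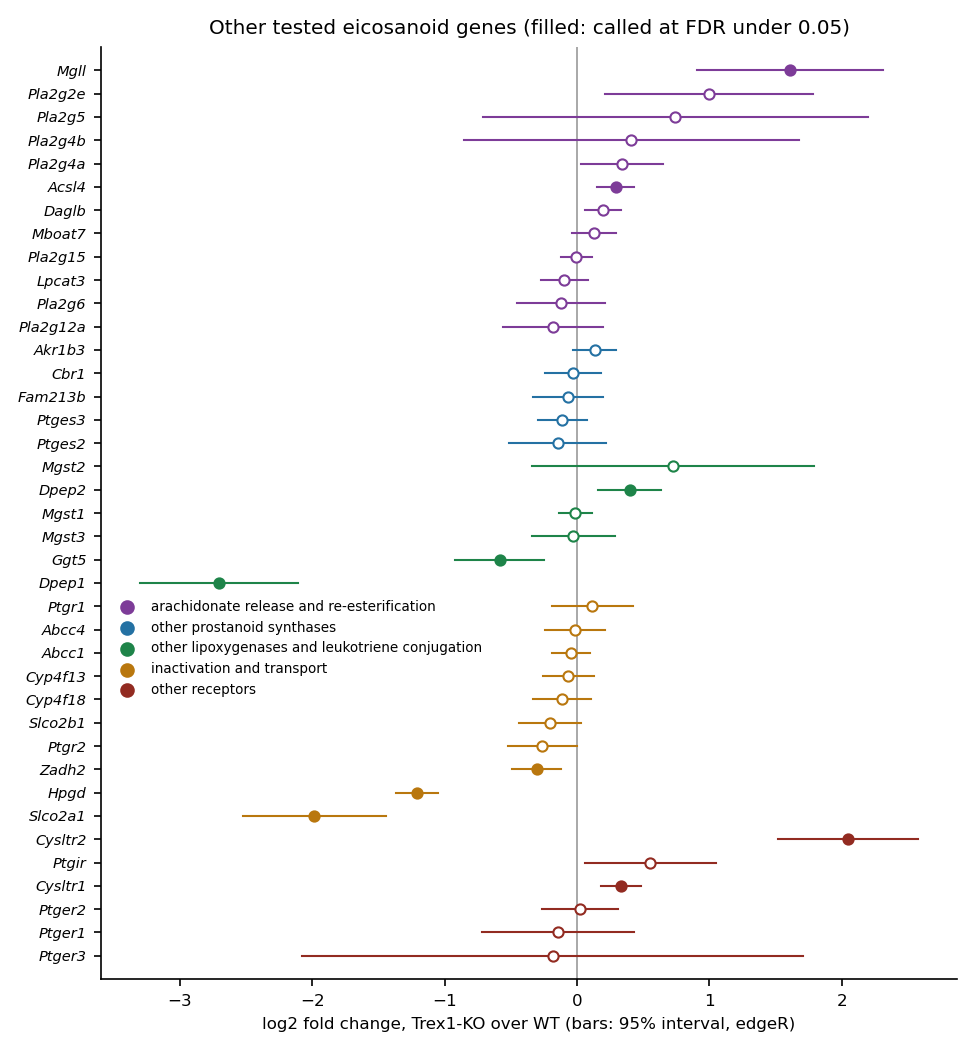
log2 fold change of the 39 other tested eicosanoid genes in Trex1-KO against WT, ordered within 5 functional groups by colour; bars are 95% intervals and filled points passed an adjusted p of 0.05. Cysltr2 lies farthest to the right at 2.05, and Dpep1 (-2.70), Slco2a1 (-1.99) and Hpgd (-1.21) lie farthest to the left.

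The genes whose log2 CPM followed that of Ptgs1 most closely over the 8 libraries, among 10714 candidates, were Tmem184c (Pearson's r = 0.963), Emb (0.947), Ggta1 (0.942), Deptor (0.927) and Zfp41 (0.919), where the 95th percentile of candidates was 0.606. Their mean levels were highest with H151, but the changes were smaller than that of Ptgs1, for example 158 CPM against 112 CPM in Trex1-KO for Ggta1 and 45.4 against 39.3 CPM for Tmem184c. Ptgs2 was followed most closely by Tbc1d10a (r = 0.987), Gm26792 (0.962), Alkbh5 (0.946), Clec4a2 (0.941) and Tmem176a (0.935), where the 95th percentile was 0.659. Tmem176a fell along the same order of group means, at 117 CPM in WT, 95.1 CPM in untreated Trex1-KO, 71.7 CPM under H151 and 54.7 CPM with SN-011. The points of these correlations share libraries and groups of 2, so they are a description of likeness only.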

How the data were processed

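The deposited values are raw counts of polyadenylated RNA-Seq read pairs per Ensembl gene, which the authors made by aligning paired-end reads to mm10 with hisat2 and counting without normalization. The labels name HTSeq and a HiSeq2500 for this, the study's methods featureCounts and another HiSeq instrument. Tool versions, annotation release and strand setting are not given in the sources used here. Groups and replicate numbers were read from sample titles.

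Counts were tested in R 4.3.3 with edgeR 4.0.16 (filterByExpr, minimum count 10 and minimum total 15, TMM factors, 1 quasi-likelihood fit of all 8 libraries, two-sided F-test, Benjamini-Hochberg over 14591 genes). Genes with an adjusted p under 0.05 are said to be called. The study used edgeR with TMM too. Standard errors (SE) were derived from each log2 fold change and its F statistic. Symbols, positions and exonic lengths came from GENCODE mouse release M21. DESeq2 1.42.0 served as an alternative, and the code was tested on simulated data. The other alternatives changed scaling, filter, test and libraries.

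The genes, lists, motifs and tests were chosen with earlier results of these data known. One item of a marker list is not reported here. All 10 genes are named. From the wider list, at most 3 called genes that rose most and 3 that fell most per comparison are named, and for Ptgs1 and Ptgs2 the 5 best correlated genes above a mean log2 CPM of 2.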

Additional observations from a re-analysis of the deposited data

How the results depend on the processing

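The alternatives were other scalings (DESeq2's size factors in edgeR, total counts only), other filters (at least 1 count in all, or at least 1 CPM in every library of a group), a replicate block, only the 2 groups compared, the exact test of edgeR, DESeq2, and each library left out. Those for the other eicosanoid genes were added after the data were seen. Over the 10 genes and 6 comparisons, 640 of 720 alternative values kept direction and side of the threshold, 17 passed it anew and 24 lost it, and 39 changed sign, 0 of them of a called value. With total counts only, sign changes were Hpgds in H151 against Trex1-KO (0.00955), Alox5 there (0.0227), Ltc4s in SN-011 against Trex1-KO (0.00994) and Tbxas1 in H151 against WT (-0.00857). When 1 library was left out, the log2 ranges that crossed 0 were Ptges -0.22 to 1.32, Alox5 -0.0292 to 0.41, Ltc4s -0.38 to 0.0847 in Trex1-KO against WT, and Hpgds -0.0568 to 0.0302, Alox5 -0.11 to 0.11, Alox5ap -0.20 to 0.20, Ltc4s -0.13 to 0.17 in H151 against Trex1-KO, and Alox5 -0.36 to 0.13, Ltc4s -0.39 to 0.23 in SN-011 against Trex1-KO, and Alox5 -0.36 to 0.13, Lta4h -0.0746 to 0.0572, Ltc4s -0.41 to 0.21, Ptger4 -0.0163 to 0.11 in SN-011 against H151, and Tbxas1 -0.0278 to 0.11, Alox5 -0.0293 to 0.41, Alox5ap -0.31 to 0.0951, Ltc4s -0.36 to 0.10, Ptger4 -0.36 to 0.19 in H151 against WT, and Ptges -1.03 to 0.12, Alox5 -0.17 to 0.34, Ltc4s -0.54 to 0.0698, Ptger4 -0.31 to 0.24 in SN-011 against WT.

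Genes called over the whole table moved by over 1.5 times in H151 against Trex1-KO with the 1-count filter (525 against 325), in SN-011 against Trex1-KO with that filter (679 against 340) and the exact test (569), and between the antagonists, where 23 became 266 with that filter, 44 with the replicate block, 74 with the exact test and 38 with DESeq2. Of the 10 genes, H151 against Trex1-KO gave 1 with total counts only. In SN-011 against Trex1-KO, 0 became 3 with the 1-count filter and 1 (Ptger4) with the replicate block, the 2 groups alone, the exact test and DESeq2. H151 against WT went from 1 to 2 (Ptgs2 added) with total counts only, the 1-count filter and the exact test. Of the 39 other genes, Slco2b1 (named after its values were seen) was the 1 call in H151 against Trex1-KO with the 1-count filter, the replicate block, the exact test and DESeq2. The 1-count filter gave 1 (Ptgir) in SN-011 against Trex1-KO and 2 (Abcc1 and Hpgd) between the antagonists, and DESeq2 gave 5 of 9 in SN-011 against WT. Calls among all genes with 1 library left out ranged over 1556 to 1933 in Trex1-KO against WT, 231 to 357 in H151 against Trex1-KO, 131 to 302 in SN-011 against Trex1-KO, 2 to 291 in SN-011 against H151, 971 to 1772 in H151 against WT, 909 to 1159 in SN-011 against WT. Calls among the 10 with 1 library left out ranged over 1 to 3 in Trex1-KO against WT, 1 to 2 in H151 against Trex1-KO, 0 to 1 in SN-011 against Trex1-KO, 0 to 2 in SN-011 against H151, 0 to 3 in H151 against WT, 0 to 2 in SN-011 against WT. Calls among the 39 with 1 library left out ranged over 6 to 9 in Trex1-KO against WT, 0 to 1 in H151 against Trex1-KO, 0 to 0 in SN-011 against Trex1-KO, 0 to 1 in SN-011 against H151, 5 to 8 in H151 against WT, 4 to 5 in SN-011 against WT. The causes were not tested.

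Scaling by total counts only lowered the share of calls that were higher from 56.6% to 37.2% in Trex1-KO against WT, from 57.4% to 41.7% in H151 against WT and from 52.6% to 40.3% in SN-011 against WT. Under it Hpgds (adjusted p = 0.235) and Ptger4 (0.0574) were not called in Trex1-KO against WT, and Lta4h was (-0.25, adjusted p = 0.0399). Same-numbered libraries correlated in their deviations at 0.194 in Trex1-KO and H151 and between -0.0163 and 0.0609 in the other pairs, and no label says what a number stands for, so the replicate block is no paired analysis. It changed no call among the 10 genes but that of Ptger4 in SN-011 against Trex1-KO (adjusted p = 0.0174). With 2 libraries a group, each leave-one-out fit assumes that the lone library varies like the others. Alox5, Ptges and Ptgs2 rested on 95 counts or fewer per library.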
